A study of Mus musculus with 1049 samples.

Results

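Fibrillar collagens are the rope-forming collagens of the dermis, and 7 of their chain genes were described here: Col1a1 and Col1a2 of type I, Col3a1 of type III, Col5a1, Col5a2 and Col5a3 of type V, and Col11a1 of type XI. They were taken by name as the listed genes, 7 of the 51777 genes counted in all tables, and all 7 passed the filter on low counts. The cells were dermal fibroblasts of C57Bl/6 mice that the labels call newborn (1.5 or 2.5 days old), young (2 months) and old (18 months). All groups carried the same strain background and no transgene or treatment was named; the labels name no mouse for any cell. Cells were stained for CD45, CD117, EpCam, CD31, CD34 and Pdgfra, sorted singly into plate wells and sequenced with Smart-seq2, which copies polyadenylated RNA along its length and adds no molecular identifiers.

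Each α chain is made as a procollagen with a long triple-helical stretch of Gly-X-Y repeats. Type I collagen, the main fibril of skin, is a heterotrimer of α1(I) chains, encoded by Col1a1, with a single α2(I) chain, encoded by Col1a2. Type III collagen is a homotrimer of Col3a1 chains, co-assembles with type I and is abundant in fetal and healing skin. Type V collagen is built mainly of Col5a1 and Col5a2 chains, lies inside heterotypic fibrils and is needed to start them; α3(V), encoded by Col5a3, replaces a chain in some tissues. Type XI collagen, with the α1(XI) chain of Col11a1, is best known as the nucleator of cartilage fibrils.

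Of 861 wells on 9 plates, 735 cells were kept: 249 newborn, 246 young and 240 old. Each plate held all 3 ages, with 5 plates in experiment 1 and 4 in experiment 2, and reads were summed over the cells of each age in each experiment. This gave 6 sums of 119682449 to 195324769 reads on genes and n = 2 sums per age, with 246349 to 4331293 reads per cell. CPM is the usual depth-scaled count. Levels of sums are scaled by TMM, which sets libraries by the bulk of their genes. Levels of single cells and of plates are by total reads, without TMM. P-values measure only the spread between these 2 experiments, and in such sums fewer cells with a message and less message per cell cannot be told apart. Of 8 fibroblast markers 8 were read at every age, led by Dcn and Lum, each read in 99.9% of cells. Markers of other cell types were read at low levels and are given with the last results.

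Col1a1 lies on chromosome 11 at 94936224 to 94953042 (plus strand), Col1a2 on chromosome 6 at 4504814 to 4541544 (plus) and Col3a1 on chromosome 1 at 45311538 to 45349706 (plus). Its neighbour Col5a2 lies on the same chromosome at 45374321 to 45503282 on the minus strand. Col5a1 is on chromosome 2 at 27886425 to 28039514 (plus), Col5a3 on chromosome 9 at 20770050 to 20815067 (minus) and Col11a1 on chromosome 3 at 114030540 to 114220718 (plus; GRCm38, GENCODE M21). Col1a2, Col3a1, Col5a1, Col5a2 and Col5a3 overlap annotated short or non-coding genes, antisense ones for Col5a1 and Col5a3. Strand use in counting is not stated, so reads of such partners cannot be told apart.

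A sequence shared by most of these messages is the match to the seed of miR-29, a microRNA family known to repress collagen messages in mouse and human fibroblasts. The mature forms are shown because a single seed, in capitals (bases 2 to 8), defines all their matches (RefSeq, GRCm38.p6).
mmu-miR-29a-3p: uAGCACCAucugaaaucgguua
mmu-miR-29b-3p: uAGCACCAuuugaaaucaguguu
mmu-miR-29c-3p: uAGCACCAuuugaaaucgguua

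The 7-base match TGGTGCT was searched on the message strand of the 3′ untranslated region of the transcript with the longest coding part of each gene. It was found in 6 of the 7 genes, against 11.9% of 20578 protein-coding genes and 19.9% of the 10414 genes whose region was at least as long as that of Col5a3 (785 bases), the shortest of the 7. At least 2 matches were found in 3 of the 7 genes, against 1.86% of all 20578 genes and 3.601% of the 10414 with a region as long. Col5a1 held 4, Col5a3 held 3, Col11a1 held 2, and Col1a1, Col3a1 and Col5a2 held 1 each. In Col1a2 these letters are not in the window. The matches, in capitals, are shown for Col1a1, Col3a1 and Col5a2 and for the first and last match in Col5a1 and Col5a3, with their position in GRCm38.
Col1a1, chr11:94952538-94952544, plus: ggaaggaatttcTGGTGCTatag
Col3a1, chr1:45348982-45348988, plus: aaaatgtctcaaTGGTGCTataa
Col5a2, chr1:45374966-45374972, minus: ttcttttaatgaTGGTGCTaaaa
Col5a1, chr2:28038004-28038010, plus: actatgaacattTGGTGCTgaat
Col5a1, chr2:28038722-28038728, plus: agagagtcactcTGGTGCTtgtg
Col5a3, chr9:20770781-20770787, minus: acatgggctcctTGGTGCTgagg
Col5a3, chr9:20770252-20770258, minus: caggatcctacaTGGTGCTgccc

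Mature microRNAs were not measured, so the matches are a description of the messages and of no activity. Promoter windows were found for 5 of the 7 genes in RefSeq. Those of Col1a2 and Col3a1 are shown, 120 bases up to the RefSeq start site. They were chosen because both messages varied together across cells although their promoters differ in base make-up. The 250 bases before the start were 62.0% G and C in Col1a2 and 35.2% in Col3a1. The Col1a2 window lies inside the GENCODE M21 gene, which begins at 4504814, so it is upstream of the RefSeq start only.
Col1a2, chr6:4505498-4505617, plus: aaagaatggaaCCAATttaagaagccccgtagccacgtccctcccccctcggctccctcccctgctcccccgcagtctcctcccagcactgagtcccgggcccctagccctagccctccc
Col3a1, chr1:45311418-45311537, plus: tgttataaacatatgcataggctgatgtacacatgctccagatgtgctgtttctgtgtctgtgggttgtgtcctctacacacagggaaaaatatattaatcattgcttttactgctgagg

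The capitals mark CCAAT, the letters that the factor NF-Y recognises. Searched on both strands of the 250 bases, CCAAT was found in 33.85% of 32851 promoters and in 3 of the 5 windows (Col1a2, Col5a3 and Col11a1). The GC box GGGCGG was found in 32.7% of promoters and in 4 of the 5, all but Col3a1. TATAAA was found in 12.4% of promoters and, among the 5, in Col3a1 alone, whose match starts 117 bases before the start site.

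The levels of the 7 genes followed 2 patterns between newborn and young dermis and 1 between young and old. Both type I chains and Col5a3 were higher in young than in newborn sums, while Col3a1, Col5a1, Col5a2 and Col11a1 were lower, and 6 of the 7 were lower in old than in young sums. For type I, newborn sums had 10877 and 8256 CPM of Col1a1 in experiments 1 and 2, young sums had 18052 and 13014 CPM, and old sums 2698 and 1539 CPM. Of Col1a2, newborn sums had 11043 and 9170.1 CPM, young sums 23478 and 18449 CPM, and old sums 5436 and 4092 CPM. Both genes had their highest sums in young and their lowest in old dermis. The ages did not overlap with TMM scaling; by total reads alone, Col1a1 had 16336 and 11448 CPM in young, against 13082 and 9824 CPM in newborn sums, which overlap.

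Of Col3a1, newborn sums had 26593 and 23119.7 CPM, young sums 19845 and 18477 CPM, and old sums 3613 and 3269.8 CPM. Its order was newborn, young, old in both experiments. Col5a2, the α2(V) chain, followed the same order, with newborn sums at 1567 and 1549 CPM, young sums at 927 and 1034 CPM, and old sums at 229.9 and 329 CPM. So did Col5a1, the α1(V) chain, with newborn sums at 442 and 479 CPM, young sums at 184 and 207 CPM, and old sums at 93.9 and 75.5 CPM. For Col3a1, Col5a1 and Col5a2 no 2 ages overlapped.

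The remaining 2 genes were sparse. Col5a3 was read in 65 of the 735 cells, with newborn sums at 16.7 and 29.2 CPM, young sums at 80.4 and 43.8 CPM, and old sums at 38.9 and 15.7 CPM. Its young sums were the highest, and its newborn and old sums overlapped. Col11a1 was read in 12 cells, at 9.95 and 27.8 CPM in newborn sums, 0 and 3.70 CPM in young sums and 8.20 and 0 CPM in old sums. A single cell held all Col11a1 reads of the second young sum, and 2 cells held those of the first old sum, so its level in adults was that of 3 cells.

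**Figure D1:**
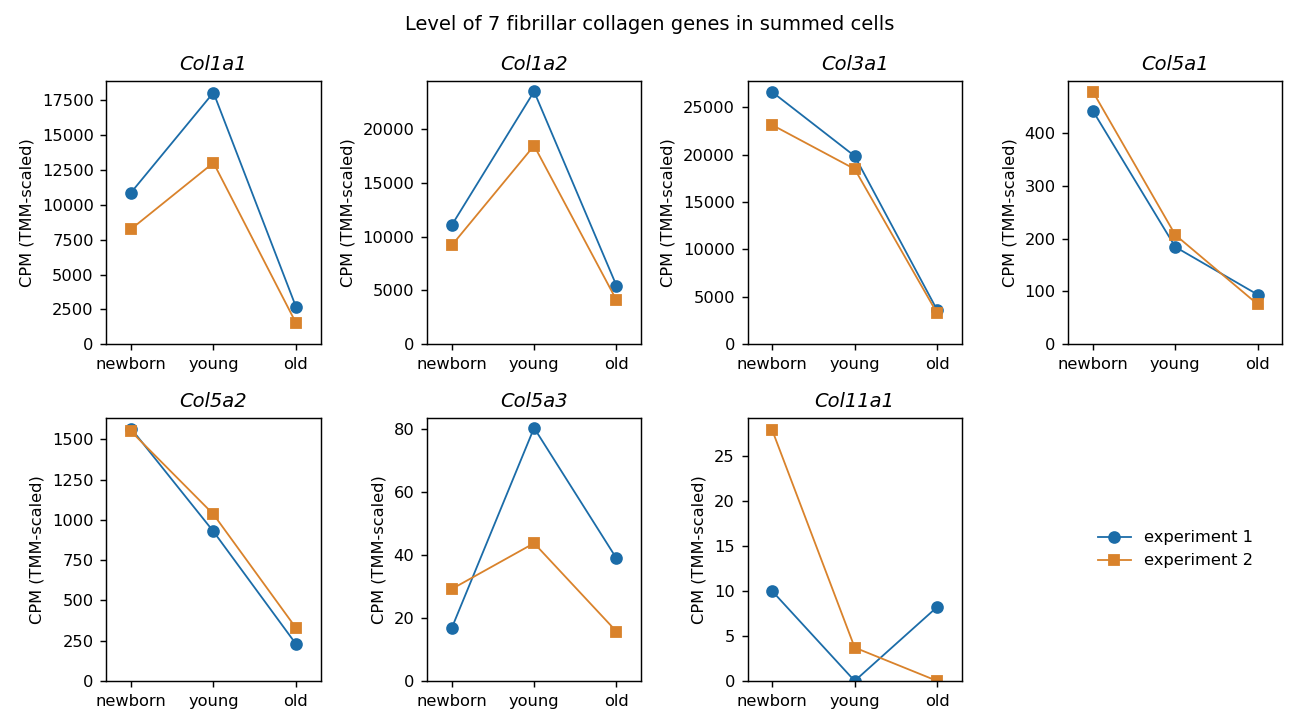
Level of each fibrillar collagen gene (vertical axis, CPM of the TMM-scaled sums, linear and starting at 0) at 3 ages (horizontal axis); each point is the sum of all kept cells of an age in experiment 1 (circles) or experiment 2 (squares), and lines join the sums of an experiment. Col1a1, Col1a2 and Col5a3 are highest in young sums, Col3a1, Col5a1 and Col5a2 are highest in newborn sums, and old sums are the lowest for the 5 widely read genes.

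Per kilobase of annotated exon, Col3a1 came first in newborn sums at 2532 ± 250.2 CPM per kb, then Col1a1 at 1458 ± 282 and Col1a2 at 813 ± 107 (SD, n = 2). In young sums Col1a1 at 2367 ± 543, Col3a1 at 1952 ± 98.5 and Col1a2 at 1687 ± 286 CPM per kb were neighbours within their spread. In old sums Col1a2 at 383 ± 76.5, Col3a1 at 351 ± 24.7 and Col1a1 at 323 ± 125 CPM per kb did not differ beyond their spread either. The order of these 3 depends on the length used. With the length of the longest-coding transcript, a setting chosen after seeing the data, Col1a2 stood above Col1a1 at each age and came first in young sums at 3919.9 ± 665 CPM per kb, against 2619 ± 601 for Col1a1.

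Col5a2 was far below these 3 genes with either length, and per kilobase of exon had 162 ± 1.29 CPM per kb in newborn, then 102 ± 7.86 in young and 29.2 ± 7.33 in old sums. Col5a1 was lower again, at 54.2 ± 3.03 CPM per kb in newborn, then 23.1 ± 1.90 in young and 9.98 ± 1.53 in old sums. Col5a3 had 3.37 ± 1.29, then 9.12 ± 3.80 and 4.01 ± 2.41 CPM per kb at these ages, and Col11a1 was lowest at each.

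Together the 7 genes took 6.08 and 5.07% of all reads in newborn sums, 5.66 and 4.51% in young sums and 1.15 and 0.857% in old sums. Newborn and young sums overlapped in this share, while both old sums lay below them. Among 51777 genes ranked by CPM per kb of exon, Col3a1 was 14th and 21st in newborn, 28th and 37th in young and 172nd and 192nd in old sums. Dcn, the collagen-binding proteoglycan decorin, was at 111716 ± 6383 CPM in old, against 108226 ± 5730.2 CPM in young sums (SD, n = 2), within its spread.

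Old dermis was compared with young dermis to ask how fibrillar collagen messages differ between 18 and 2 months. Col1a1 averaged 2119 ± 819.7 CPM in old and 15533 ± 3562 CPM in young sums, 7.33-fold lower (log2 fold change -2.87 ± 0.37 SE). Col3a1 averaged 3441 ± 242 CPM in old and 19161 ± 967 CPM in young sums, 5.57-fold lower (-2.48 ± 0.16). Col1a2 averaged 4764 ± 950.3 CPM in old and 20964 ± 3556 CPM in young sums, 4.40-fold lower (-2.14 ± 0.24). Col5a2 was 3.51-fold lower in old sums (-1.81 ± 0.24), Col5a1 2.31-fold lower (-1.21 ± 0.23) and Col5a3 2.27-fold lower (-1.18 ± 0.65), while Col11a1 could not be placed (1.15 ± 3.55).

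For 6 of the 7 genes both old sums lay below both young sums, as did 15.9% of all 16684 genes tested. The differences were larger than the spread between sums for Col1a1, Col1a2, Col3a1, Col5a1 and Col5a2. Col5a3 varied about as much between its young sums (80.4 and 43.8 CPM) as between the ages (38.9 and 15.7 CPM in old sums). None of the 7 passed edgeR's quasi-likelihood test at a Benjamini-Hochberg adjusted p of 0.05, where 0.0% of all genes passed, and Col3a1 came nearest at an adjusted p of 0.128. At an unadjusted p under 0.05, edgeR gave 5 of the 7 genes (Col1a1, Col1a2, Col3a1, Col5a1 and Col5a2), against 4.85% of all genes. DESeq2 called these 5 genes lower, where it called 4.25% of its 16037 genes lower, and limma on the mean log2(CPM + 1) per cell called 0 of the 7 and 0.0% of all genes. Without the filter on low counts Col3a1 passed edgeR, at an adjusted p of 0.0433, where 0.00875% of all genes were lower.

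Within plates, by total reads without TMM, the difference between old and young cells repeated. Col1a1, Col1a2, Col3a1 and Col5a2 were lower in old cells on 9 of 9 plates, and the old and young plates did not overlap. Col1a1 ranged from 1206 to 4193 CPM over old plates, against 10377 to 19888 CPM over young plates. Col3a1 ranged from 2226 to 4248 CPM over old plates, against 12997 to 23078 CPM over young plates. Col5a1 and Col5a3 were lower in old cells on 8 of 9 plates each, with overlap. Plates share an experiment, so no p-value was taken from them.

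Young dermis was compared with newborn dermis to ask what differs once postnatal growth has passed. Col1a2 averaged 20964 ± 3556 CPM in young and 10107 ± 1324 CPM in newborn sums (2.07-fold higher, 1.05 ± 0.23), and Col1a1 15533 ± 3562 and 9566 ± 1854 CPM (1.62-fold higher, 0.70 ± 0.35). Col5a1 averaged 196 ± 16.1 CPM in young, against 461 ± 25.7 CPM in newborn sums (2.35-fold lower, -1.23 ± 0.23). Col5a2 was 1.59-fold lower in young sums (-0.67 ± 0.24) and Col3a1 1.30-fold lower (-0.38 ± 0.15). Col5a3 went the other way from its type V partners, at 62.1 ± 25.9 CPM in young and 23.0 ± 8.81 CPM in newborn sums (2.70-fold higher, 1.44 ± 0.66).

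In this comparison the young and newborn sums of all 7 genes did not overlap, 4 lower and 3 higher in young, as for 25.1% and 22.1% of all genes. By edgeR 0 of the 7 passed, where 0.779% of all genes passed; the lowest adjusted p was 0.121, for Col5a1. At an unadjusted p under 0.05 there were 3 (Col1a2, Col5a1 and Col5a2), against 13.3% of all genes. DESeq2 called Col5a1 and Col5a2 lower and Col1a2 higher, where it called 6.98% of its genes lower and 8.88% higher. Limma on mean log2 values called Col5a1 lower and Col5a3 higher, where it called 4.57% and 1.97%. The type I chains were higher in young cells on 9 of 9 plates with overlap, and Col3a1, Col5a1 and Col5a2 lower on 9 of 9 plates without overlap. Scaling by total reads without TMM moved the median gene to -0.49 in young against newborn sums, against -0.07 with TMM. The 7 genes kept their directions under that scaling, but 1 of them, Col1a1, then had overlapping young and newborn sums and was 1.21-fold higher in young, so 6 of the 7 did not overlap.

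Across the whole span, old against newborn, 3 genes passed edgeR's test and fell, where 0.935% of all genes passed and 0.138% fell. Col3a1 averaged 3441 ± 242 CPM in old and 24856 ± 2456 CPM in newborn sums, 7.22-fold lower (log2 fold change -2.85 ± 0.16, adjusted p 0.00784). Col5a2 averaged 279.6 ± 70.3 CPM in old and 1558 ± 12.4 CPM in newborn sums, 5.57-fold lower (-2.48 ± 0.25, adjusted p 0.0293). Col5a1 averaged 84.7 ± 13.0 CPM in old and 461 ± 25.7 CPM in newborn sums, 5.44-fold lower (-2.44 ± 0.23, adjusted p 0.0260). All 3 were lower in both experiments. The ages share plates within an experiment, and with the experiment as a block 1 of the 3 passed, Col3a1 (adjusted p 0.0250, where 0.03% of all genes fell); Col5a1 and Col5a2 did not pass, with adjusted p of 0.0678 and 0.0646.

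Col1a1 (-2.17 ± 0.36, adjusted p 0.0932) and Col1a2 (-1.09 ± 0.23, adjusted p 0.151) did not pass, with both old sums below both newborn sums, which held for 6 of the 7 genes and 25.7% of all genes. DESeq2 and limma each called 5 of the 7 lower, Col1a1 and Col1a2 among them, where they called 9.29% and 6.74% of genes lower. Col5a3 (0.25 ± 0.65) had overlapping sums, and its sign turned to -0.09 without TMM. The calls were thinly supported: leaving out 1 sum in turn left at most 1 of the 3, Col3a1, and 0 without either old sum or without the first young sum, whose spread the fit shares. In cells with fewer than 10 reads of each of several markers of other lineages, named with the last results, Col5a2 had an adjusted p of 0.0697 and the other 2 passed.

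The share of cells with a read separated the type V chains from those of types I and III. Col1a1 and Col1a2 were read in at least 96.8% of cells of every sum. Col3a1 was read in every newborn and young cell, while in old dermis it was read in 107 of 126 cells of experiment 1 (84.9%, 95% exact interval 77.5 to 90.7%) and 107 of 114 of experiment 2 (93.9%, 87.8 to 97.5%). Intervals cover counting error only. Each cell was also thinned to 100000 reads, and Col3a1 was then read in 81.0 and 89.5% of old cells, against 100% and 99.0% of young cells.

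Of newborn cells 77.2 and 83.5% had a Col5a1 read, of young cells 55.6 and 54.8%, and of old cells 20.6 and 24.6% (after thinning 74.7 and 83.5%, 50.7 and 49.0%, and 19.0 and 24.6%). A Col5a2 read was found in 91.8 and 96.7% of newborn cells, then in 70.4 and 87.5% at the young age and 34.9 and 42.1% at the old age (after thinning 89.9 and 95.6%, 69.7 and 85.6%, and 33.3 and 36.8%). For both genes every younger age had a higher share in both experiments. For Col5a3 the newborn shares were 4.43 and 3.30%, the young shares 16.2 and 15.4%, and the old shares 7.94 and 5.26%. Col11a1 was read in 0 of 142 young cells of experiment 1, and in 0 of 114 old cells of experiment 2. A limit of 3 cells allows shares of up to 2.11% and 2.63% there, and the exact intervals reach 2.56% and 3.18%.

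**Figure D2:**
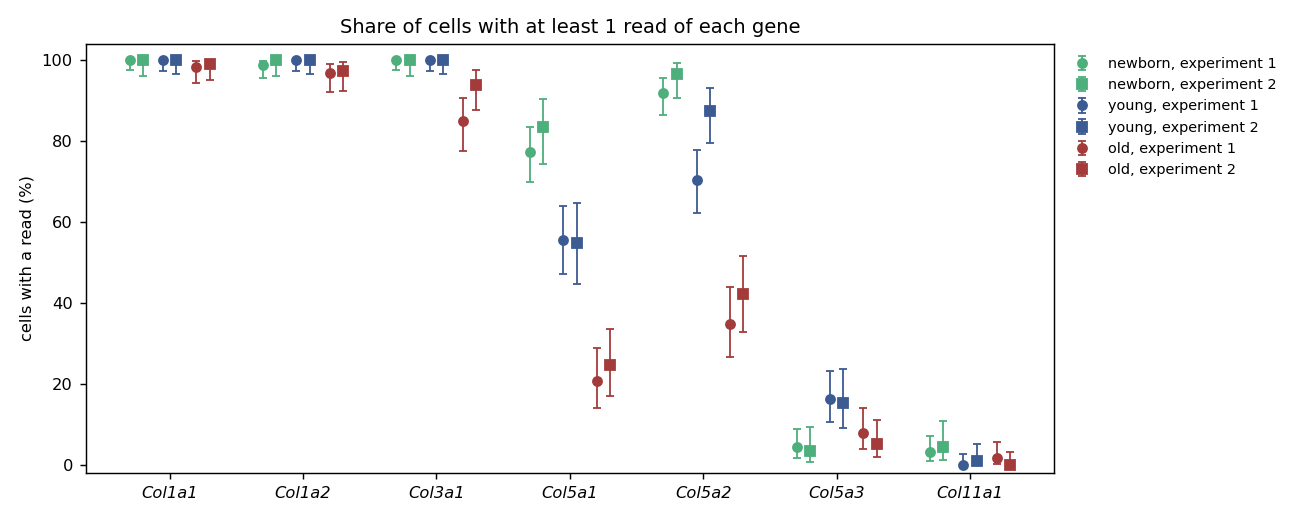
Share of kept cells with at least 1 read of each gene (vertical axis, percent) for newborn, young and old cells of experiment 1 (circles) and experiment 2 (squares), with exact 95% binomial intervals, before thinning. Col1a1 and Col1a2 stay near 100% at all ages, while Col5a1 and Col5a2 step down with age to 20.6 to 42.1% of old cells.

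Levels of the type V messages were also taken over the cells with a read, by total reads of each cell. Among cells with a Col5a1 read the median level was 393 and 205 CPM in old cells, against 273 and 305 CPM in young cells, and the 2 ages overlapped. For Col5a2 it was 543 and 574 CPM in old cells, against 918 and 904 CPM in young cells. Newborn cells with a read were higher, at 659 and 622 CPM for Col5a1 and 1860.2 and 1684 CPM for Col5a2. Both Col5a1 and Col5a2 were read in 6.35 and 13.2% of old cells, against 40.8 and 51.0% of young and 74.1 and 83.5% of newborn cells. Each gene alone was also read in few old cells, Col5a1 in 20.6 and 24.6% and Col5a2 in 34.9 and 42.1%. The joint shares were not tested against these single shares, so they are no measure of pairing. In 50.8 and 46.5% of old cells neither was read, against 14.8 and 8.65% of young cells. A message below the capture limit of a cell gives no read, and that share was not measured here, since the spike-in RNAs had 80 reads in all wells.

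In young dermis 14 of 23 and 10 of 16 cells with a Col5a3 read (60.9 and 62.5%) also had a Col5a1 read, against 54.6 and 53.4% of the remaining cells. In old dermis these shares were 40.0 and 33.3%, against 19.0 and 24.1%, and in newborn dermis 85.7 and 100%, against 76.8 and 83.0%. Col5a3 was read in only 10 and 6 old and 7 and 3 newborn cells, and the difference was not tested. Col5a3 levels rested on few cells, and the cell with most reads held 87.8% of the Col5a3 reads in the newborn sum of experiment 2.

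Col1a1, Col1a2 and Col3a1 spread widely at every age, and old cells filled the low end. The median Col1a1 level was 1362 and 960 CPM in old cells, against 16102 and 10936 CPM in young cells. Of the old cells 96.8 and 100% lay below the young median of their experiment for Col1a1, 95.2 and 100% for Col1a2 and 95.2 and 97.4% for Col3a1. Below the 10th percentile of young cells lay 76.2 and 64.0% of old cells for Col1a1, 57.9 and 41.2% for Col1a2 and 77.8 and 46.5% for Col3a1. The median old cell had 0.661 and 0.650% of its reads in the 7 genes, against 5.39 and 4.08% in the median young cell.

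A few old cells of experiment 1 lay above the young median share of 5.39%. The highest had 13.1% of its reads in the 7 genes and held 4.38% of all reads of these genes in its sum. The highest old cell of experiment 2 had 4.27%, just above the young median of 4.08% there. Without its highest cell that first old sum had 2425 CPM of Col1a1 by total reads, against 2561 CPM with it.

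**Figure D3:**
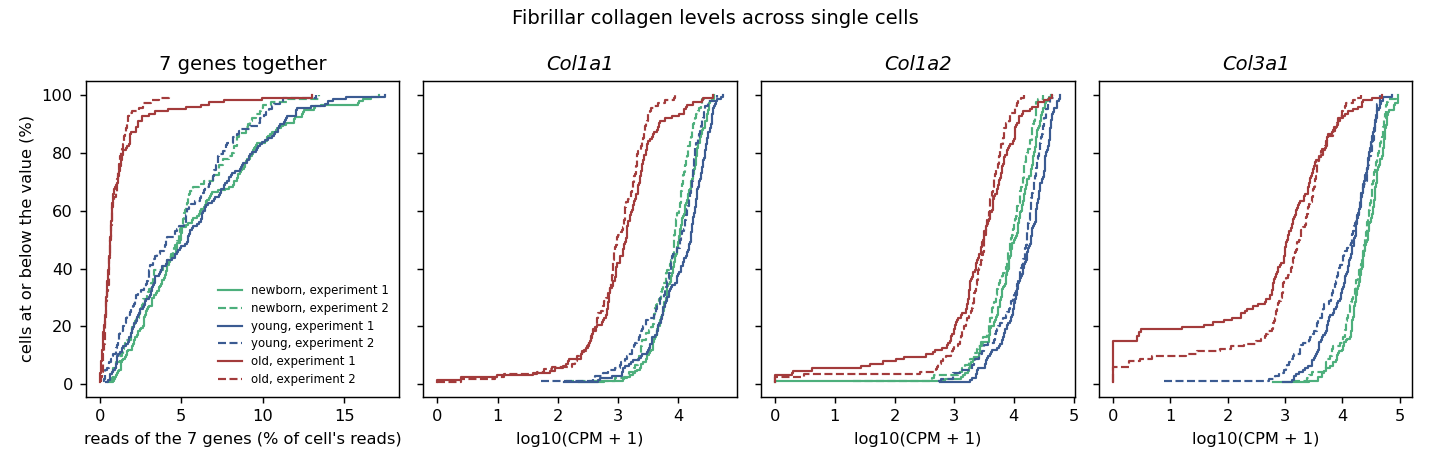
Cumulative distribution over single cells (vertical axis, percent of cells at or below the value) of the share of reads in the 7 genes (percent of a cell's reads, left) and of Col1a1, Col1a2 and Col3a1 (log10(CPM + 1)); colours mark age, solid lines experiment 1 and dashed lines experiment 2. Curves of old cells lie left of young and newborn curves over nearly their whole length, with medians of 0.661 and 0.650% against 5.39 and 4.08% in young cells.

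The ratio between chains, which needs no library scaling, differed with age. Reads of Col1a1 per kilobase of exon over those of Col1a2 gave newborn ratios of 1.86 and 1.70, young ratios of 1.46 and 1.34, and old ratios of 0.940 and 0.712. Old averaged 0.826 ± 0.161, against 1.40 ± 0.0850 in young sums, and young lay below newborn sums (1.78 ± 0.113, SD, n = 2). The ratio was lower in old than in young cells on 9 of 9 plates (0.646 to 1.18 over old, against 1.29 to 1.69 over young plates, with no overlap). It was also lower in young than in newborn cells on 9 of 9 plates, with overlap. Within cells that had at least 10 reads of each, the median ratio was 1.96 and 1.67 at the newborn age, 1.40 and 1.28 at the young age, and 0.802 and 0.617 at the old age.

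Gene length sets the absolute ratio and multiplies it alike at every age: by the longest-coding transcript, Col1a1 over Col1a2 averaged 0.850 ± 0.0540 in newborn sums, 0.665 ± 0.0405 in young sums, and 0.393 ± 0.0767 in old sums (SD, n = 2). Cells of like Col3a1 level (3000 to 10000 CPM, chosen after seeing the data) kept the order of Col1a1 over Col1a2: the exon ratio was 2.22 and 1.57 in 17 and 9 newborn cells, 1.24 and 1.05 in 35 and 27 young cells, and 0.874 and 0.724 in 24 and 33 old cells. The log2 ratio of old over young was then -0.52, against -0.77 in all cells. With 2 against 2 sums the smallest 2-sided permutation p is 0.333, so ratios are given as descriptions.

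Col3a1 over Col1a1 was 0.735 and 0.949 in young sums, against 1.63 and 1.87 in newborn sums, and was lower in young than in newborn cells on 9 of 9 plates with no overlap. In old sums it was 0.895 and 1.42, higher in old than in young cells on 8 of 9 plates, with overlapping sums. In cells of like Col3a1 level it was 1.30 and 2.04 in old, against 0.633 and 0.735 in young cells. That range lies below the median Col3a1 level of young cells (16111 and 14619 CPM) and above that of old cells (1092 and 1786 CPM). Col3a1 is the numerator here, so this choice tends to raise the ratio in old and lower it in young cells. These values therefore cannot tell the ages apart. Col5a1 over Col1a1 was lowest in young dermis: 0.0269 and 0.0379 in old, against 0.00789 and 0.0123 in young sums, with 0.0314 and 0.0448 in newborn sums. Old and young sums did not overlap, and old exceeded young cells on 8 of 9 plates, over a wide range of 0.00230 to 0.113 in old plates. In cells of like Col3a1 level the sums overlapped, at 0.0118 and 0.0208 in old, against 0.0118 and 0.0109 in young cells. Col5a2 over Col3a1 was 0.0651 and 0.103 in old, against 0.0478 and 0.0573 in young sums, also higher on 8 of 9 plates. This order turned round in cells of like Col3a1 level, at 0.0493 and 0.0814 in old, against 0.116 and 0.152 in young cells. The log2 of old over young was then -1.07. Here Col3a1 is the denominator, so the same choice tends to raise the ratio in young and lower it in old cells. The turned order therefore cannot be read as a difference between ages, and the ratio depends on which cells are compared.

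Among the type V chains, Col5a2 over Col5a1 gave newborn ratios of 3.14 and 2.86, young ratios of 4.45 and 4.42, and old ratios of 2.17 and 3.86, with old cells lower than young on 6 of 9 plates. Col5a3 over Col5a1 was 0.0471 and 0.0760 in newborn sums, 0.544 and 0.263 in young sums and 0.517 and 0.259 in old sums. This ratio was thus higher in adult than in newborn cells, on 9 of 9 plates for young against newborn and for old against newborn. Old and young sums overlapped. The newborn ratio rested on 7 and 3 cells with a Col5a3 read. In old against newborn, Col5a3 itself had overlapping sums, while Col5a1 was 5.44-fold lower in old sums. Col11a1 over Col5a1 rested on too few cells to compare.

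**Figure D4:**
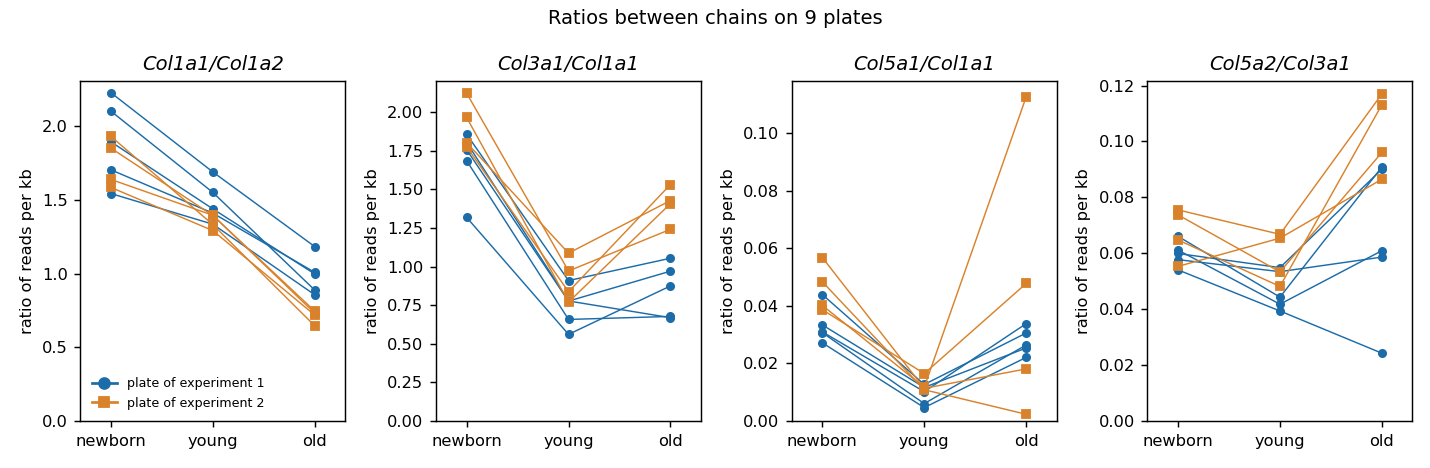
Ratio of reads per kilobase of exon (vertical axes, linear from 0) between 4 pairs of chains at 3 ages; each line joins the newborn, young and old cells of 1 plate, blue circles for the 5 plates of experiment 1 and orange squares for the 4 of experiment 2. Col1a1/Col1a2 is lower in old than in young cells on every plate, and Col3a1/Col1a1 and Col5a1/Col1a1 are lower in young than in newborn cells on every plate.

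Across cells the type I and III messages varied together. Spearman correlations between Col1a1 and Col1a2, computed on log2(CPM + 1) within each sum and given as descriptions without p, over 91 to 158 cells per sum, were 0.901 and 0.931 for newborn cells, 0.928 and 0.924 for young cells, and 0.650 and 0.616 for old cells. Col1a1 and Col3a1 had 0.518 and 0.567 in old sums, against 0.842 to 0.849 over the young and newborn sums. Col1a2 and Col3a1 had 0.526 and 0.478 in old sums, against 0.813 to 0.834 over the others. Each old value was thus below each younger value for these 3 pairs. Old cells also had lower levels of these 3 genes, and Col3a1 was read in 84.9 and 93.9% of them. The part of level and of cells without a read in the lower correlations was not tested.

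The type V chains followed more loosely. Col5a2 correlated with Col3a1 at 0.550 to 0.577 among newborn, 0.309 to 0.393 among young, and 0.243 to 0.325 among old cells. Col5a1 and Col5a2, partners in the type V trimer, reached 0.218 and 0.281 among newborn cells, 0.101 and 0.281 among young cells, and -0.02 and 0.141 among old cells. The median over the 10 pairs of the 5 widely read genes was 0.584 and 0.544 for newborn cells, 0.228 and 0.387 for young cells, and 0.230 and 0.244 for old cells. Cells of a sum share plates and depth. The summed CPM of the 7 genes correlated with a cell's total reads at -0.159 to 0.0739 and with its mitochondrial share at -0.0949 to 0.384, the highest in the first old sum; the part of either in these values was not tested. With few reads per cell, weak correlations are no finding.

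**Figure D5:**
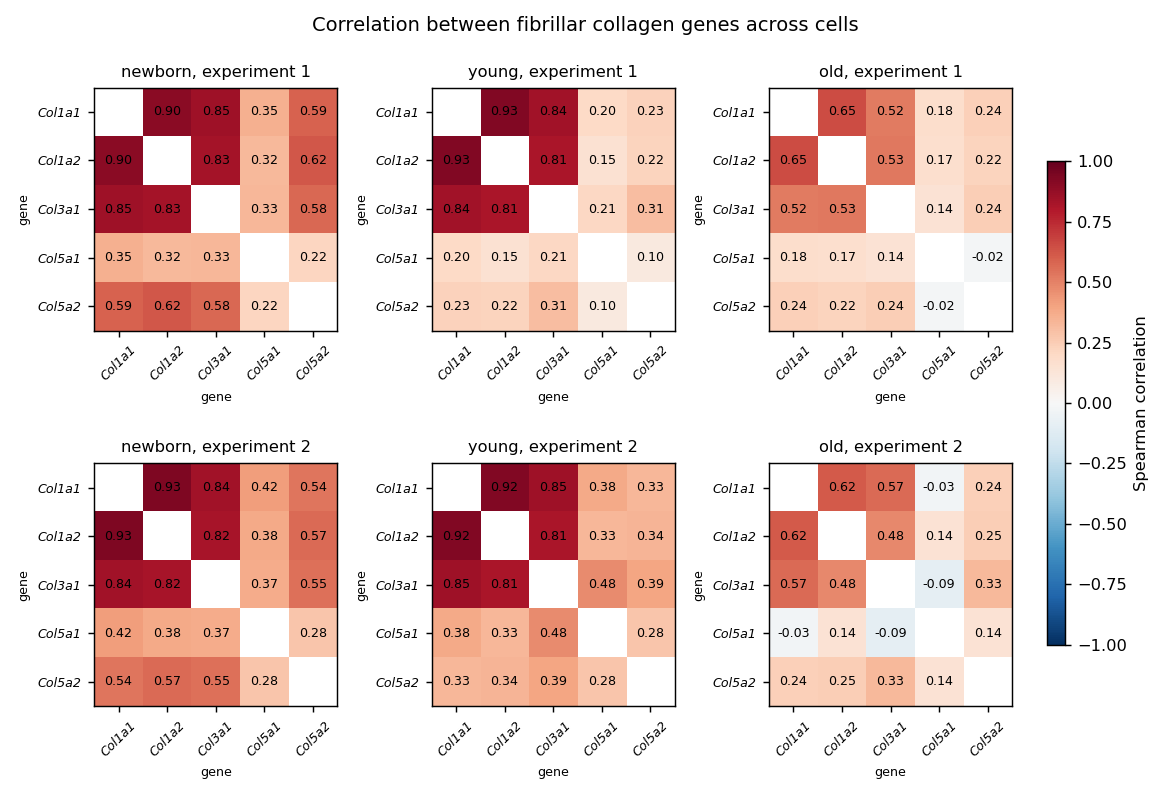
Spearman correlation across cells (colour scale from -1 to 1, value printed in each square) between the 5 widely read fibrillar collagen genes, in newborn, young and old cells of experiment 1 (top) and experiment 2 (bottom). Col1a1, Col1a2 and Col3a1 form a block at 0.478 to 0.650 in old cells, against 0.813 to 0.931 in young and newborn cells.

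The genes most alike to the summed 7 were named by rank among 1683 genes read in at least 25% of cells of every sum, by the mean over 6 sums of the Spearman correlation in thinned cells. The median gene had -0.03 and the 95th percentile 0.134. Sparc, which encodes the collagen-binding matricellular protein osteonectin, came first among other genes at 0.724, with 0.527 and 0.458 in old, against 0.913 and 0.901 in young cells. Cpz, a Wnt-binding carboxypeptidase, had 0.378, the claudin gene Cldn10 0.377, Vkorc1 of the vitamin K cycle 0.359 and Ppp1r14a, an inhibitor of myosin phosphatase, 0.355. Kdelr2, which returns chaperones to the endoplasmic reticulum, had 0.342 and the cyclophilin gene Ppic 0.334. CT010467.1 (0.376), Gm42418 (0.367) and AY036118 (0.357) overlap each other at a ribosomal RNA locus on chromosome 17 and count as 1 place.

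Genes that fold, cleave and crosslink procollagen were counted next. Of 29 tested, 0 passed edgeR in old against young, where 0.0% of all genes did; 19 were lower in old sums in each experiment and 1 higher, against 23.5% and 22.7% of all genes, with a median log2 fold change of -0.66 against 0 for all genes. Lox, which starts crosslinking of lysines, was at 36.7 ± 15.1 CPM in old and 163 ± 103.8 CPM in young sums (-2.15). Fkbp10, a prolyl isomerase of procollagen folding, was at 25.5 ± 24.3 CPM in old and 96.0 ± 24.2 CPM in young sums (-1.91). Plod1, a lysyl hydroxylase, was at 23.2 ± 11.8 CPM in old and 78.5 ± 39.3 CPM in young sums (-1.76). In old against newborn 0 of the 29 passed, with 18 lower and 7 higher in each experiment (32.7% and 27.0% of all genes). In young against newborn 0 passed and 12 were lower and 10 higher (32.8% and 28.4%).

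Of 19 tested genes for proteins that bind or space fibrils, 0 passed in old against young, with 11 lower and 1 higher in each experiment (23.5% and 22.7% of all genes) and a median of -0.35, against 0 for all genes. Sparc was at 2297 ± 108 CPM in old and 13607 ± 496 CPM in young sums (-2.57, adjusted p 0.128). In old against newborn, where 0.935% of all genes passed, Sparc fell (-2.11, adjusted p 0.0157), while Dcn (2.84, adjusted p 0.00867) and Tnxb, encoding tenascin-X (7.95, adjusted p 0.0414), rose. Dcn and Tnxb rose also in young against newborn sums, where 0.779% of all genes passed, and Dcn was at 108226 ± 5730.2 CPM in young, against 15637.5 ± 2445 CPM in newborn sums (adjusted p 0.00990). With the experiment as a block Dcn and Sparc passed in old against newborn (adjusted p 0.0407 and 0.0449), Tnxb did not pass in either comparison (0.107 against newborn in old and 0.115 in young sums), and Dcn did not in young against newborn (0.0505).

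Of 10 tested genes of collagen breakdown and its inhibitors, Ctsk and Timp2 rose in young against newborn and in old against newborn, and 10 of 10 were higher in young than in newborn sums in each experiment (28.4% of all genes; 0.779% passed in young against newborn and 0.935% in old against newborn). With the experiment as a block, only Timp2 in old against newborn passed (adjusted p 0.0407); Ctsk there had 0.0646, and both had 0.0505 in young against newborn. Ctsk, encoding cathepsin K, which cleaves fibrillar collagen, had 2621 ± 185 CPM in young, against 332 ± 40.3 CPM in newborn sums (adjusted p 0.0105). Timp2, an inhibitor of metalloproteinases, had 849.9 ± 93.9 CPM in young, against 169 ± 3.97 CPM in newborn sums (adjusted p 0.0243). In old against young 0 of the 10 passed. Ctsk then had 1438 ± 119 CPM in old and 2621 ± 185 CPM in young sums (-0.87), and Mmp2, a gelatinase, 696 ± 3.53 CPM in old and 1348 ± 284 CPM in young sums (-0.95).

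Of 8 collagen receptor genes and 24 genes for regulators of collagen transcription, 0 passed in any of the 3 comparisons by edgeR. Among the regulators the largest changes in old against young that kept their direction in both experiments were those of Nfyb, Skil and Creb3l1. Nfyb, a subunit of the CCAAT-binding factor NF-Y, was at 85.9 ± 14.6 CPM in old and 56.1 ± 27.3 CPM in young sums (0.62), and Skil, a co-repressor of TGF-beta signalling, at 74.4 ± 25.6 CPM in old and 50.8 ± 1.79 CPM in young sums (0.55). Creb3l1, whose product activates type I collagen genes in osteoblasts of the mouse, was at 168 ± 23.3 CPM in old and 240.4 ± 12.4 CPM in young sums (-0.52), and in newborn sums at 94.0 ± 6.80 CPM. Of the other fibrillar collagen genes outside the 7, Col24a1 and Col27a1 were tested and had 0 CPM in old and young sums, against 1.97 ± 1.84 and 20.8 ± 17.0 CPM in newborn sums.

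Markers of other cell types were low beside these levels, and their part in the results was not tested. The summed immune list was at 11.5 to 26.8 CPM in old, against 46.8 to 170.2 CPM in young and 2.13 to 2.73 CPM in newborn sums. The macrophage receptor gene Csf1r led it in both young sums and the first old sum. In the second old sum Cd68 had 14.1 CPM, against 12.7 CPM of Csf1r, and other members than Csf1r led in newborn sums. The endothelial list, led by Plvap, was at 67.6 to 83.6 CPM in old, against 75.7 to 90.7 CPM in young sums. The epithelial list, led by Krt10, was at 57.1 to 70.9 CPM in old, against 43.6 to 47.3 CPM in young sums. The mural and smooth muscle list was at 4.62 to 15.9 CPM in old, against 4.70 to 11.4 CPM in young and 14.7 to 98.8 CPM in newborn sums, with 4 of its 5 genes read in the second newborn sum. Ptprc, Adgre1 and Cd3e of immune cells, Cdh5 of endothelium and Rgs5 of pericytes were at 0 reads. Other members of these lists did have reads: Krt10 in 29.9% of kept cells, Plvap in 20.3%, Csf1r in 7.21% and Acta2 in 2.18%. A set of cells was also taken with fewer than 10 reads of each of several markers (88 and 91 old, 85 and 65 young). The markers were Ptprc, Kit, Epcam, Pecam1, Cdh5, Plvap, Csf1r, Krt14, Acta2, Rgs5 and Adipoq, without Krt10. In these cells the 7 genes kept their directions in old against young sums.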

How the data were processed

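Single dermal fibroblasts were profiled with Smart-seq2. The authors deposited raw read counts per gene and cell, in tables by plate. GRCm38 and FastQC are listed per the submitters' processing notes; aligner, counting program and strand setting: not given in the sources used here. Of counts above 0, 74.9% were even. Tables of 11 plates held 1044 usable columns; 2 pairs were repeat runs of 1 plate (median correlation 0.994 well by well, at most 0.430 for other pairs) and were added, leaving 861 wells on 9 plates. Gene names, positions and lengths came from GENCODE M21, matched by identifier for 51633 of 51777 genes.

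Cells with at least 50000 reads, at least 1000 genes and at most 25% mitochondrial reads were kept, and counts were summed per age and experiment. Cells are not replicates, so n = 2 sums per age; experiments are labelled and mice are not. With 1 cell sorted per well, doublets were not called. edgeR 4.0.16 in R 4.3.3 tested 16684 genes (TMM, filterByExpr, robust quasi-likelihood fit, age only, 3 residual degrees of freedom); SE is the absolute log2 fold change over the square root of F. Adjusted p-values are Benjamini-Hochberg over all genes tested, threshold 0.05. Alternatives used DESeq2 1.42.0 and limma 3.58.1 (pseudocount 1). The edgeR step was tested on simulated data. Sums of an experiment come from the same plates, per the labels, so the experiment was also fitted as a block; their deviations from the age means correlated at -1.7e-04 to 0.0125 across genes.

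The 7 genes, the gene lists, the ratios and the naming rule were chosen with earlier results of these data known. That rule took all 7 genes; from each list those past the threshold or, with none, up to 3 with the largest change at a mean of at least 50 CPM and the same direction in both experiments; and the 10 genes most alike. Dcn in old against young, and Col24a1 and Col27a1, were named outside that rule, with their values known.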

Additional observations from a re-analysis of the deposited data

How the results depend on the processing

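Fold changes of the 7 genes were recomputed under 15 other settings in each comparison. Directions held in all but 4 cases, all of sparse genes: Col11a1 in old against young was -11.25 without old replicate 1, and Col5a3 in old against newborn was -0.09483 by total reads without TMM, -0.09653 without newborn replicate 1 and -0.5359 without old replicate 1, within a leave-one-out range of -0.5359 to 0.7613. The cause was not tested. Counts of calls moved more. DESeq2 called 2 genes lower and 1 higher in young against newborn, and limma 1 and 1. In old against young DESeq2 called 5 lower, and edgeR without a filter on low counts 1 (Col3a1). In old against newborn DESeq2 and limma called 5 lower, and leaving out 1 sum in turn left 0 to 1; fewer sums leave fewer residual degrees of freedom. The replicate block (experiment) left 1, Col3a1, instead of 3 in old against newborn (adjusted p 0.0678 for Col5a1 and 0.0646 for Col5a2) and changed no other call of the 7 genes. Over all genes edgeR called 130 (120 higher, 10 lower) in young against newborn, 0 in old against young and 156 (133 higher, 23 lower) in old against newborn. DESeq2 called 2390 (1338 higher, 1052 lower), 1114 and 2856 (1427 higher, 1429 lower), limma 1092, 0 and 1414, thinned cells 254, 0 and 281, and the block 25, 0 and 51; without the filter on low counts 2 were called in old against young. Col3a1, Col5a1, Col5a2 and Col5a3 were read in a smaller share of old than young cells, also under thinning and at a minimum of 10 reads. Col1a1 and Col1a2 were read in at least 94.4% of cells in every setting. Old cells also had fewer genes read, at medians of 1813.5 and 2137, against 1968 and 2515.5 in young cells. How many of all genes were read in fewer old cells was not counted. In cells of like Col3a1 level, chosen after seeing the data, the log2 ratio of old over young turned to -1.069 for Col5a2 over Col3a1. Col3a1 set that choice and is part of this ratio, so the turn cannot be read as a difference between ages. For Col5a1 over Col1a1 the log2 ratio was 0.4687, and the cause was not tested. Of the 7 ratios, 4 had old and young sums that did not overlap, 3 by the median over plates. Depth limits Col11a1 and Col5a3, which rest on 12 and 65 cells.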
